A study of Mus musculus with 16 samples.

Results

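The genes described here are 8 chemokine ligands, Ccl2, Ccl5, Ccl7, Ccl8, Ccl9, Ccl11 and Ccl20 of the CC family and Cx3cl1 of the CX3C family, out of 34650 gene names on the array. They were chosen by name: every non-control probe whose annotated gene is one of the 8 was taken, which gave 8 probes, 1 for each gene. Their RNA was measured in primary mouse lung fibroblasts, the matrix-producing cells of the lung, on 16 one-colour arrays. The cells had been passaged after isolation, transfected with a small interfering RNA (siRNA) and collected 48 hours later. The siRNA was directed against Lox (siLox), against Loxl1 (siLoxL1), against Loxl2 (siLoxL2), or was a scrambled control (scr), with 4 arrays per group. Their targets are genes of the lysyl oxidase family, whose enzymes start to cross-link elastin and collagen. The strain, age and sex of the mice, and whether the replicates were separate cultures, are not given in the sources used here. The p-values below therefore reflect only how these samples scatter, which may be technical. The title of the series refers to exogenous expression, but each sample label names an siRNA, and the groups follow the sample labels.

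Chemokines are small secreted proteins that bind G protein-coupled receptors and draw leukocytes along their gradient. CC chemokines mostly attract monocytes, T cells, eosinophils and dendritic cells, and Cx3cl1 is made as a membrane-bound protein that proteases can release. Fibroblasts are a known source of Ccl2, Ccl7 and Ccl5 when inflammatory signals reach them through the transcription factor NF-kB, and lung fibroblasts can in this way take part in leukocyte recruitment.

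Slide 1 carried siLox and scr, slide 2 carried siLoxL1 and siLoxL2, and every group filled one row of its slide. The slides were read on scanners of different models, with 1 scan pass for slide 1 and 2 passes for slide 2. A comparison of siLox with scr, or of siLoxL1 with siLoxL2, therefore lies within 1 slide, while for siLoxL1 or siLoxL2 against scr the group and the slide cannot be told apart. Within each slide, the group and the row cannot be told apart either. Levels below are log2 signals minus the array's 75th percentile, so that 0 is the signal at that percentile, and they are compared between groups for 1 probe at a time. Differences are log2 fold changes with the standard error (SE) of a limma fit over 22644 genes, and a gene was called at a Benjamini-Hochberg adjusted p under 0.05 over all these genes. Spots well above background made up 49.2% to 52.3% on slide 1 and 60.4% to 63.1% on slide 2, no spot was saturated, and the number of arrays limits the precision. Lox lay at 0.39 to 2.04 in siLox and at 3.88 to 4.16 in scr. Loxl1 and Loxl2 were called lower in siLox too, with log2 differences from scr of -0.49 ± 0.13 and -0.71 ± 0.17 (SE, adjusted p = 0.0347 and 0.0248, limma). Loxl1 lay at 4.54 to 4.72 in siLoxL1 and at 5.65 to 5.80 in siLoxL2. Loxl2, at 5.69 ± 0.10 in siLoxL1 and 5.38 ± 0.14 in siLoxL2 (SD, n = 4 each), gave a difference of 0.30 ± 0.08 (SE), siLoxL1 minus siLoxL2, that was not called (limma, adjusted p = 0.0551). All 10 fibroblast markers were above background on every array, and the epithelial markers Epcam, Cdh1, Sftpc and Sftpb were above background on none. Of the same epithelial list, Krt18, Krt8 and Krt19 were above background on every array. Scgb1a1 was so on 2 siLox arrays and on every array of the other groups. The 4 mesothelial markers Msln, Upk3b, Wt1 and Lrrn4 were above background on every array. The fibroblast marker Fn1 read -2.60 on one siLoxL1 array, against values up to 8.33 on the others of that group.

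Each gene was thus read through a single probe of 60 bases, and the first 30 bases of the probes of the genes with called or non-overlapping differences within a slide, and of the genes not detected, were as follows in lower case, 5′ to 3′.
Ccl5: tctcagctgctccgaggctctgcacagcaa
Ccl7: ttctgagaactgttgatgaaatgtgttgat
Ccl9: caactaggatgaaataaattctgccttagc
Ccl11: taggagtaactgaggataatagcagcttat
Ccl20: ttttcttataaaacagaaaagaattataag
The Ccl20 probe was poor in G and C (16.7%, lower than all but 0.0485% of the probes on the array), and the Ccl11 probe held 31.7% (1.89% of probes were lower), whereas the other 6 lay between 41.7% and 45.0%, near the median of 43.3%. No run longer than 9 bases was shared between the probes of any pair of the 8 genes. In mouse build mm9, as the scanner files place them, the probes of Ccl2 (chr11:81850650-81850709), Ccl7 (chr11:81860656-81860715), Ccl11 (chr11:81876072-81876131) and Ccl8 (chr11:81930108-81930167) lay on the plus strand within one cluster. The probes of Ccl5 (chr11:83339296-83339355) and Ccl9 (chr11:83388223-83388282) lay on the minus strand in a neighbouring cluster, the Ccl20 probe at chr1:83115682-83115741 and the Cx3cl1 probe at chr8:97306185-97306244. Whether a probe lies in a coding exon or an untranslated region was not determined here.

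Of the 8 genes, 6 were well above background on all 16 arrays, and Ccl11 and Ccl20 were above background on none. Ccl11, which attracts eosinophils, and Ccl20, the ligand of Ccr6, were therefore not tested, and no fold change is given for them. The Ccl11 probe read -7.15 to -5.93 in siLox, -8.41 to -6.48 in siLoxL1, -8.25 to -6.92 in siLoxL2 and -6.95 to -5.38 in scr. The Ccl20 probe read -7.22 to -6.76 in siLox, -8.44 to -7.83 in siLoxL1, -8.28 to -8.18 in siLoxL2 and -7.13 to -6.83 in scr. These signals lay within the background. Each of these genes had a single probe, low in G and C, whose response was not tested. The signals therefore do not show how low the transcripts were.

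**Figure D1:**
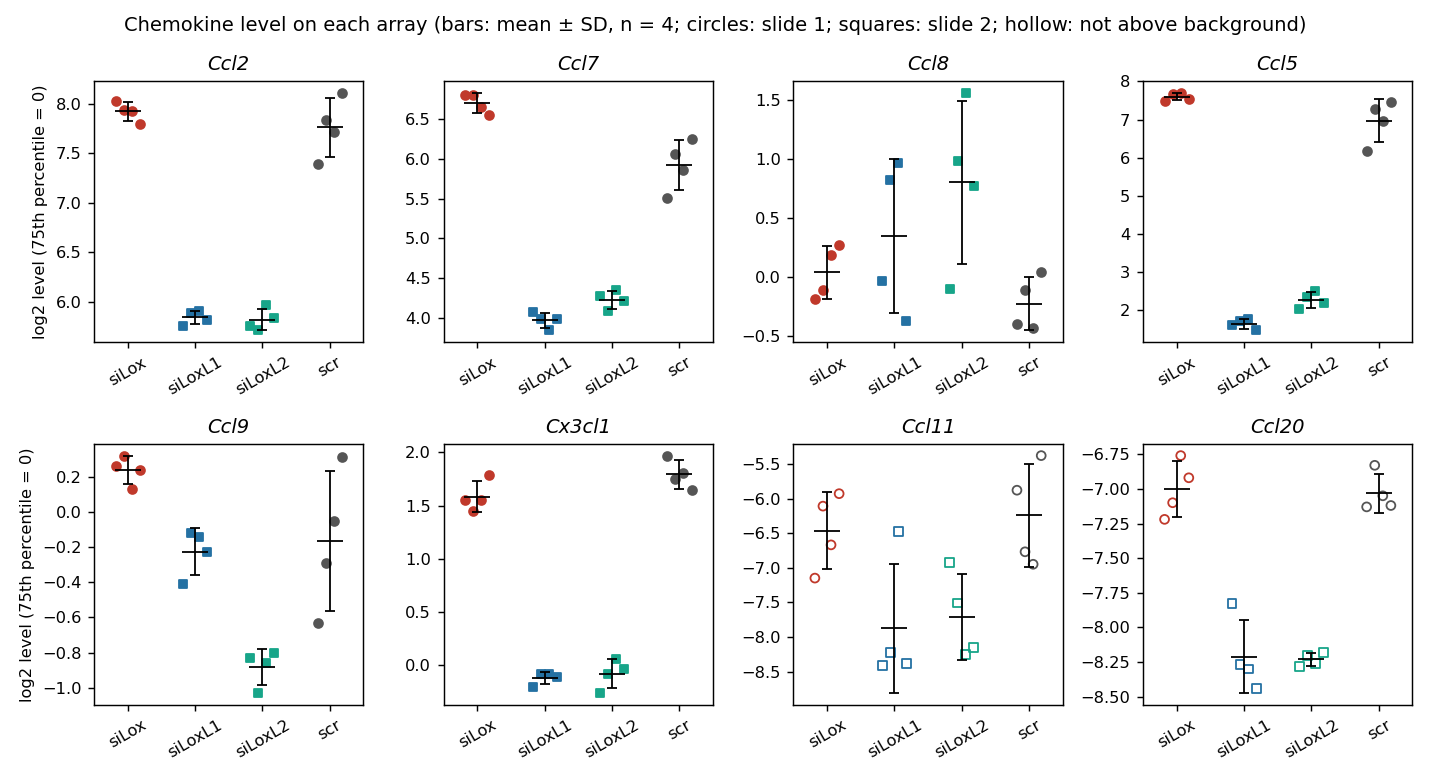
Level of each of the 8 chemokine genes on each array (log2 signal, 75th percentile of the array at 0), with the group mean and SD (n = 4); circles are arrays of slide 1, squares arrays of slide 2, and hollow symbols signals not above background. Ccl5 lay at 7.50 to 7.70 in siLox, 1.47 to 1.77 in siLoxL1, 2.03 to 2.50 in siLoxL2 and 6.18 to 7.46 in scr.

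Between siLox and scr, Ccl7 was higher in siLox and the other 5 genes tested were not called. Ccl7, a monocyte attractant that acts through Ccr2 and related receptors, was 1.73-fold higher, and Ccl5, which attracts T cells and monocytes, was 1.55-fold higher on average without reaching the threshold. Ccl2, the principal monocyte attractant, averaged 7.93 ± 0.10 in siLox and 7.77 ± 0.30 in scr (SD, n = 4 each) and was not called. Thus 1 of 6 genes tested was higher and 0 were lower in siLox (2 higher and 0 lower at an unadjusted p under 0.05 in limma), where 25% of all 22644 genes were called (11.5% of all genes higher and 13.5% lower). A single call among 6 is near that background and says nothing particular about the group. The median difference of the 6 genes was 0.33, against -0.05 over all genes.

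Ccl7 read 6.81, 6.81, 6.66 and 6.55 in siLox, against 5.51, 6.07, 5.86 and 6.25 in scr. Every siLox array was above every scr array, and the lowest scr value was that of replicate 1. The difference was 0.79 ± 0.16 (SE, 95% interval 0.42 to 1.15, adjusted p = 0.0165 with limma, n = 4 each), and the exact two-sided permutation test gave 0.0286, the smallest p that 4 against 4 arrays allow. The call was narrow: without siLox replicate 2 the adjusted p was 0.0507 and without scr replicate 3 it was 0.0512, at differences of 0.75 and 0.77.

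Ccl5 read 7.50, 7.67, 7.70 and 7.54 in siLox, against 6.18, 7.27, 6.97 and 7.46 in scr. The siLox arrays lay within 0.20 of each other and just above the highest scr array, while the scr arrays spanned 1.27, with replicate 1 far below the others. The difference was 0.63 ± 0.26 (SE, 95% interval 0.04 to 1.23), with an adjusted p of 0.103 in limma and an exact permutation p of 0.0286. Without scr replicate 1 it was 0.37, and without scr replicate 4 it was 0.80 and was called (adjusted p = 0.0453, limma).

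In all, 2 of the 6 genes tested, Ccl5 and Ccl7, showed no overlap between the groups, both of them higher in siLox, where 30.6% of all genes did not overlap and 13.7% did so with siLox higher. Ccl2 read 8.03, 7.94, 7.93 and 7.80 in siLox, against 7.39, 7.84, 7.72 and 8.11 in scr. The highest and the lowest of these 8 values were both scr arrays. The difference of 0.16 ± 0.15 (SE) was not called (adjusted p = 0.44, limma), and its 95% interval of -0.18 to 0.50 leaves room for a change in either direction. Ccl2 was the only one of the 8 read by 10 spots per array, whose SD within an array was 0.040 to 0.104 on the log2 scale.

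Ccl9, a mouse chemokine that acts through Ccr1, read 0.26, 0.32, 0.13 and 0.24 in siLox, against -0.63, -0.29, -0.05 and 0.31 in scr. The groups overlapped only through scr replicate 4. The difference was 0.40 ± 0.18 (SE, 95% interval -0.02 to 0.83, adjusted p = 0.136, limma), and without scr replicate 4 it was 0.56 and was called (adjusted p = 0.0229).

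Ccl8, a gene of the Ccl2 cluster, read -0.19, -0.11, 0.19 and 0.27 in siLox, against -0.40, -0.11, -0.43 and 0.04 in scr. The groups overlapped, and the difference of 0.27 ± 0.15 (SE, 95% interval -0.08 to 0.61) was not called (adjusted p = 0.21, limma). Cx3cl1, the membrane-bound ligand of Cx3cr1, read 1.55, 1.45, 1.55 and 1.79 in siLox, against 1.97, 1.75, 1.81 and 1.65 in scr. It was the only member with a difference below 0, -0.21 ± 0.10 (SE, 95% interval -0.44 to 0.02), which was not called (adjusted p = 0.144, limma).

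**Figure D2:**
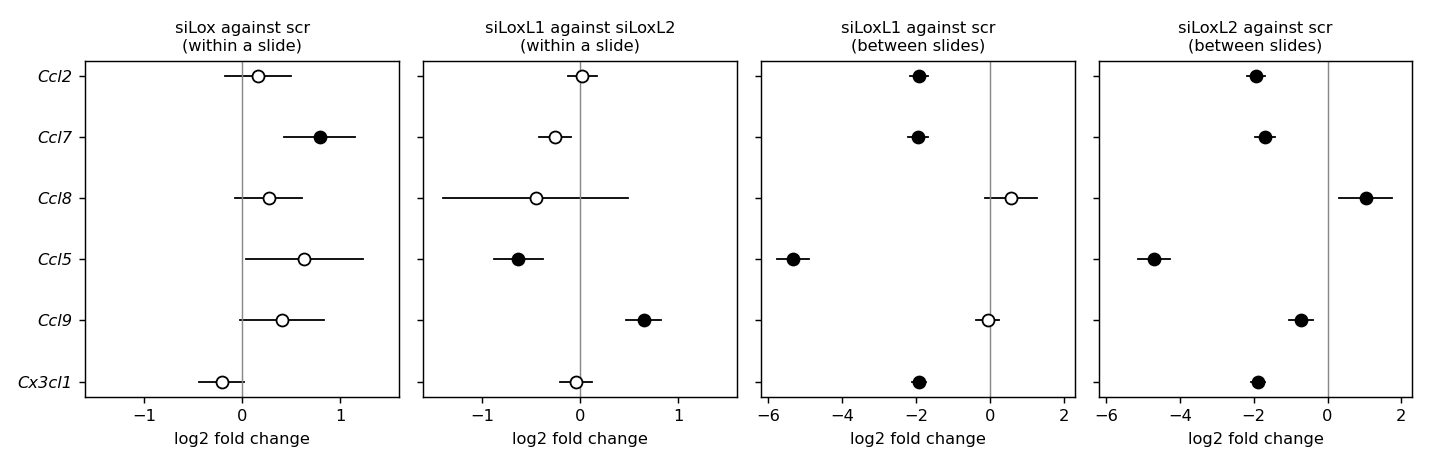
Log2 fold change of the 6 chemokine genes tested (x axis), with the 95% interval, in each of 4 comparisons; filled points had an adjusted p under 0.05. Within slides Ccl7 (0.79, siLox against scr), Ccl5 (-0.63) and Ccl9 (0.65, both siLoxL1 against siLoxL2) are filled, and the panels between slides have an axis of their own that reaches -5.33 for Ccl5.

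The spread of the scr arrays followed a common pattern. In scr, Ccl2, Ccl5, Ccl7 and Ccl9 were all lowest on replicate 1 and highest on replicate 4, and Cx3cl1 was highest on replicate 1 and lowest on replicate 4. The SD of Ccl5 was 0.10 in siLox and 0.56 in scr, and that of Ccl9 was 0.08 in siLox and 0.40 in scr, while the median SD over all genes was 0.132 in siLox and 0.167 in scr.

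Markers of leukocytes and macrophages, which a fibroblast culture can contain, followed a similar order over the scr arrays, as did other gene lists. The mean of 15 such markers read -0.59, -0.39, -0.60 and -0.47 in siLox, against -1.47, -1.07, -0.98 and -0.54 in scr. It too was lowest on scr replicate 1 and highest, among the scr arrays, on replicate 4, which lay within the siLox range. Of the lists described below, the signalling genes had means of 2.18 and 2.59 on scr replicates 1 and 4. The genes that act, mostly as inhibitors, on NF-kB or chemokine mRNA had 2.21 and 2.83, and the other CC and XC ligands -3.4 and -2.76. The fibroblast markers (5.48 and 5.1) and the glycosaminoglycan carriers (1.69 and 1.38) ran the other way. Of the 15 markers, 2 were higher and 0 lower in siLox (7 and 1 at an unadjusted p under 0.05 in limma), with a median difference of 0.45. The shares over all genes were 11.5% higher and 13.5% lower, so 2 calls among 15 are near that background. Marco, a macrophage scavenger receptor, was 1.08 ± 0.15 higher (adjusted p = 0.0073) and S100a8, a myeloid calcium-binding protein, 0.78 ± 0.22 higher (adjusted p = 0.0369, limma). The 13 not called ran from -0.27 (Cd3e) to 1.6 (Itgax), with Itgam at -0.04 and Cd14 and Cd79a at -0.01 each. Without scr replicate 4, 10 of the 15 were higher and 1 was lower. In that setting 7829 of all 22644 genes were called, 48.9% of them higher. The pan-leukocyte marker Ptprc stood at -3.38 ± 0.21 in siLox and -3.76 ± 0.27 in scr (SD, n = 4 each), above background on all 8 arrays, and the macrophage marker Adgre1 at -1.79 ± 0.49 in siLox and -2.67 ± 0.90 in scr. None of the 15 was below background throughout, and 14 in siLox and 13 in scr were above it on all 4 arrays. The part of such cells in the chemokine differences was not tested, and in bulk RNA fewer cells of a type and less RNA per cell cannot be told apart.

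**Figure D3:**
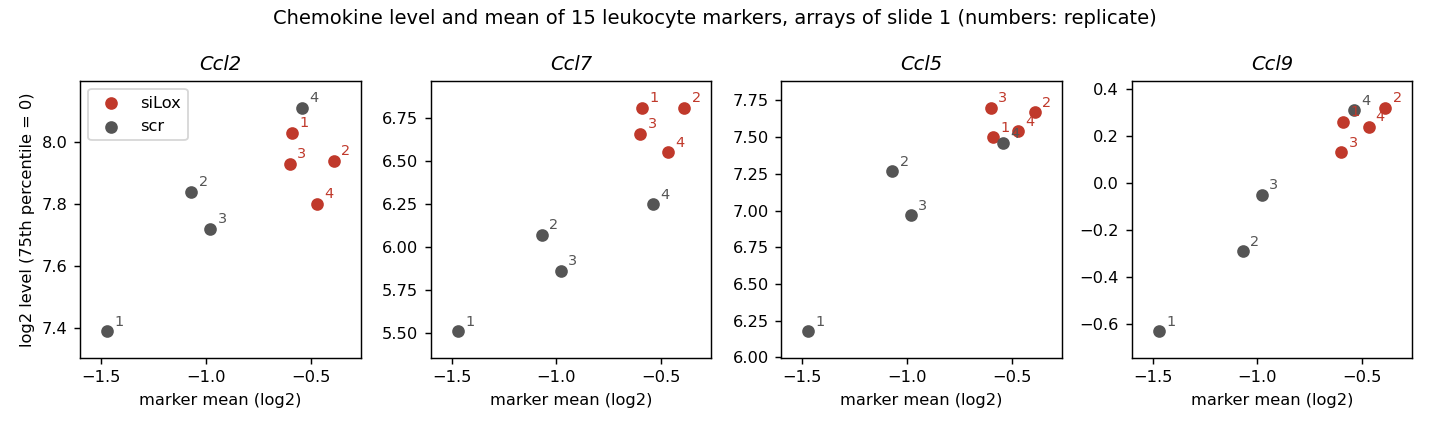
Level of Ccl2, Ccl7, Ccl5 and Ccl9 (y axis, log2) against the mean of 15 leukocyte and macrophage markers (x axis, log2) on the 8 arrays of slide 1, with replicate numbers. In all 4 panels scr replicate 1, at a marker mean of -1.47, is the lowest point.

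Within slide 2, Ccl9 was higher and Ccl5 lower in siLoxL1 than in siLoxL2, although both genes lie in the same chromosome 11 cluster. Of the 6 genes tested, 1 was higher and 1 lower, where 8.8% of all genes were called, 6.1% higher and 2.7% lower. For 3 of the 6 the arrays of the groups did not overlap, against 20.3% of all genes. The median difference of the 6 was -0.15, against 0.03 over all genes. The balance of directions over all genes depended on the scaling: 69.3% of the called genes were higher in siLoxL1 here, 56.5% with the authors' value table and 83% when arrays were centred on their median.

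Ccl9 read -0.41, -0.12, -0.14 and -0.23 in siLoxL1, against -0.83, -1.03, -0.86 and -0.80 in siLoxL2. Every siLoxL1 array was above every siLoxL2 array, with a gap between the groups that exceeded the range within either. The difference was 0.65 ± 0.08 (SE, 95% interval 0.47 to 0.83, adjusted p = 0.00639 with limma, exact permutation p = 0.0286, n = 4 each), or 1.57-fold. It held in 19 of 20 alternative settings, between 0.54 and 0.71, and with replicate 4 of both groups left out its adjusted p was 0.0533.

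Ccl5 read 1.61, 1.72, 1.77 and 1.47 in siLoxL1, against 2.03, 2.36, 2.50 and 2.20 in siLoxL2. Here too the groups did not overlap. The difference was -0.63 ± 0.11 (SE, 95% interval -0.88 to -0.38, adjusted p = 0.0169 with limma), so that siLoxL1 stood at 64.6% of the siLoxL2 level. It lost the call with all 16 arrays in 1 fit (adjusted p = 0.115) and with replicate 4 of both groups left out (adjusted p = 0.0971).

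Ccl7 read 4.07, 3.99, 3.84 and 3.98 in siLoxL1, against 4.27, 4.08, 4.35 and 4.21 in siLoxL2. The lowest siLoxL2 array lay just above the highest siLoxL1 array, and the difference of -0.26 ± 0.07 (SE, 95% interval -0.42 to -0.09) was not called (adjusted p = 0.063, limma). It was called in 4 of 20 alternative settings.

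The remaining 3 genes gave no call between siLoxL1 and siLoxL2. Ccl2 read 5.76, 5.89, 5.91 and 5.82 in siLoxL1, against 5.76, 5.72, 5.97 and 5.84 in siLoxL2, a difference of 0.02 ± 0.06 whose 95% interval ran from -0.12 to 0.17. Cx3cl1 read -0.20, -0.08, -0.08 and -0.11 in siLoxL1, against -0.26, -0.08, 0.06 and -0.03 in siLoxL2, a difference of -0.04 ± 0.07 with an interval from -0.20 to 0.12. For both genes the arrays intermingled, and the intervals allow only small differences.

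Ccl8 was the most variable of the 6 on slide 2, with -0.03, 0.82, 0.97 and -0.37 in siLoxL1, against -0.10, 0.98, 1.56 and 0.77 in siLoxL2. Its arrays spanned 1.34 in siLoxL1 and 1.66 in siLoxL2, against 0.46 in siLox and 0.47 in scr. The difference of -0.45 ± 0.41 (SE) had a 95% interval of -1.40 to 0.49 and was not called (adjusted p = 0.511, limma). The mean of the 15 leukocyte markers lay between -0.28 and -0.21 in siLoxL1 and between -0.27 and -0.17 in siLoxL2, so the groups overlapped, with S100a8 0.68 ± 0.06 higher and the macrophage marker Cd68 0.27 ± 0.07 lower in siLoxL1 (log2 difference -0.27, adjusted p = 0.00335 and 0.046, limma).

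Across slides, Ccl5 differed by far the most of the 6 genes: it read 1.47 to 1.77 in siLoxL1 and 2.03 to 2.50 in siLoxL2, against 6.18 to 7.46 in scr. The fitted differences from scr were -5.33 ± 0.21 for siLoxL1 and -4.70 ± 0.21 for siLoxL2 (SE), that is 2.49% and 3.85% of the scr level, and by size they ranked 32 and 26 among 22644 genes. Both comparisons use the same scr arrays, and in both the group cannot be told apart from the slide, the scanner and the number of scan passes.

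Ccl2, Ccl7 and Cx3cl1 were also lower on slide 2. The differences from scr were -1.92 ± 0.12 for siLoxL1 and -1.94 ± 0.12 for siLoxL2 for Ccl2, and -1.95 ± 0.13 for siLoxL1 and -1.69 ± 0.13 for siLoxL2 for Ccl7. For Cx3cl1 they were -1.91 ± 0.09 for siLoxL1 and -1.87 ± 0.09 for siLoxL2 (SE, adjusted p from 4.86e-11 to 4.47e-08 with limma over these 3 genes and Ccl5). For each of these 4 genes, all arrays of siLoxL1 and siLoxL2 lay below all arrays of siLox and of scr. With siLoxL1 against scr, 4 of 6 genes did not overlap, all lower in siLoxL1, where 58.2% of all genes did not overlap and 19.1% did so with siLoxL1 lower. With siLoxL2 against scr, it was 5 of 6, all lower in siLoxL2, where the shares were 57.3% and 20.1%.

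Ccl8 did not share that shift, and Ccl9 shared it only in siLoxL2 and by less. Ccl9 differed from scr by -0.06 ± 0.15 in siLoxL1 (SE, adjusted p = 0.728, limma) and by -0.71 ± 0.15 in siLoxL2 (adjusted p = 0.000684). Its arrays overlapped those of scr in siLoxL1 but not in siLoxL2. Ccl8 differed by 0.58 ± 0.33 in siLoxL1 (adjusted p = 0.14) and by 1.03 ± 0.33 in siLoxL2 (adjusted p = 0.0138, limma), with arrays that overlapped those of scr in both. Without siLoxL2 replicate 3, the Ccl8 difference of siLoxL2 was 0.78 and missed the threshold (adjusted p = 0.0501, limma). Thus 4 of 6 genes were lower and 0 higher in siLoxL1 (the same counts at an unadjusted p under 0.05 in limma), and 5 lower and 1 higher in siLoxL2, where 65.1% and 64.8% of all genes were called, 21.9% and 23.4% of all genes being lower and 43.2% and 41.4% higher. The median over all genes was 0.19 for siLoxL1 against scr and 0.17 for siLoxL2 against scr, and 0.078 and 0.064 with the authors' value table, so this median moved with the scaling. Of the called genes, 66.4% were higher in siLoxL1 than in scr and 63.9% higher in siLoxL2 than in scr, against 55.4% and 53.7% with the authors' value table. The mean of the 15 leukocyte markers lay at -0.28 to -0.17 on slide 2, above every siLox and scr array, but this rested on S100a8, which was 6.01 ± 0.16 higher in siLoxL1 and 5.33 ± 0.16 higher in siLoxL2 than in scr (SE, adjusted p = 2.38e-12 and 1.23e-11, limma). Leaving out S100a8 was an alternative chosen after seeing the data. The mean of the other 14 then lay at -0.46 to -0.21 in siLox and -0.47 to -0.40 in siLoxL1. It lay at -0.41 to -0.32 in siLoxL2 and -1.30 to -0.34 in scr. The ranges of all groups overlapped, that of scr only through replicate 4. The other scr arrays read -1.30, -0.93 and -0.78, below every array of the other groups. Of the 15 markers, 7 were higher and 2 lower in siLoxL1, and 6 higher and 1 lower in siLoxL2, than in scr. The counts of higher markers are near the 43.2% and 41.4% of all genes that were higher. Ptprc was among the lower ones in both, by a log2 difference of -0.38 ± 0.15 in siLoxL1 and -0.43 ± 0.15 in siLoxL2 (adjusted p = 0.037 and 0.0225, limma).

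In order of mean level, Ccl5 and Ccl7 ran siLox, scr, siLoxL2, siLoxL1, with siLox and scr separated by a call for Ccl7 and siLoxL1 and siLoxL2 by a call for Ccl5. Ccl2 ran siLox, scr, siLoxL1, siLoxL2, and neighbours on a slide differed by no more than their spread. Cx3cl1 ran scr, siLox, siLoxL2, siLoxL1, with neither pair of neighbours on a slide called. Ccl9 ran siLox, scr, siLoxL1, siLoxL2, with a call only between the last pair, and Ccl8 ran siLoxL2, siLoxL1, siLox, scr with none between neighbours on a slide.

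The other CC ligands of the same chromosome 11 clusters were set beside the members by position. In the cluster of Ccl5, Ccl6, 62.7 kb from the Ccl5 probe, was 1.49 ± 0.36 higher in siLox than in scr (adjusted p = 0.0261) and Ccl4, an attractant of T cells and monocytes at 139 kb, was 0.97 ± 0.29 higher (adjusted p = 0.0474, limma). Ccl3, at 122 kb, gave 0.80 ± 0.41 and was not called (adjusted p = 0.177). In the cluster of Ccl2, Ccl7 lay 10 kb away and was called, whereas Ccl12, at 66.1 kb and above background on 3 of 4 scr arrays, gave 1.49 ± 0.60 (adjusted p = 0.101), and Ccl1, at 140 kb and above background on 1 siLox and 3 scr arrays, gave -0.35 (adjusted p = 0.323).

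On slide 2 the neighbours of Ccl5 differed in direction among themselves. Ccl3 fell by 1.18 and Ccl4 by 0.71 in siLoxL1 relative to siLoxL2 (adjusted p = 0.00335 and 0.00691, limma), as did Ccl5, while Ccl9, which lies between Ccl5 and them, was higher and Ccl6 gave 0.15 (adjusted p = 0.173). Over the whole list of 15 other CC and XC ligands, 10 were tested, of which 3 were higher and 0 lower in siLox against scr (median 0.53, and 5 and 0 at an unadjusted p under 0.05 in limma). In siLoxL1 against siLoxL2, 0 were higher and 2 lower (median 0.08, and 2 and 3 at an unadjusted p under 0.05). The shares over all genes were 11.5% higher and 13.5% lower for siLox, and 6.1% and 2.7% for siLoxL1 against siLoxL2. The third called in siLox was Ccl28, 1.27 ± 0.32 higher (adjusted p = 0.0284), which was above background on 1 scr array only, so its size rests partly on signals at background.

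**Figure D4:**
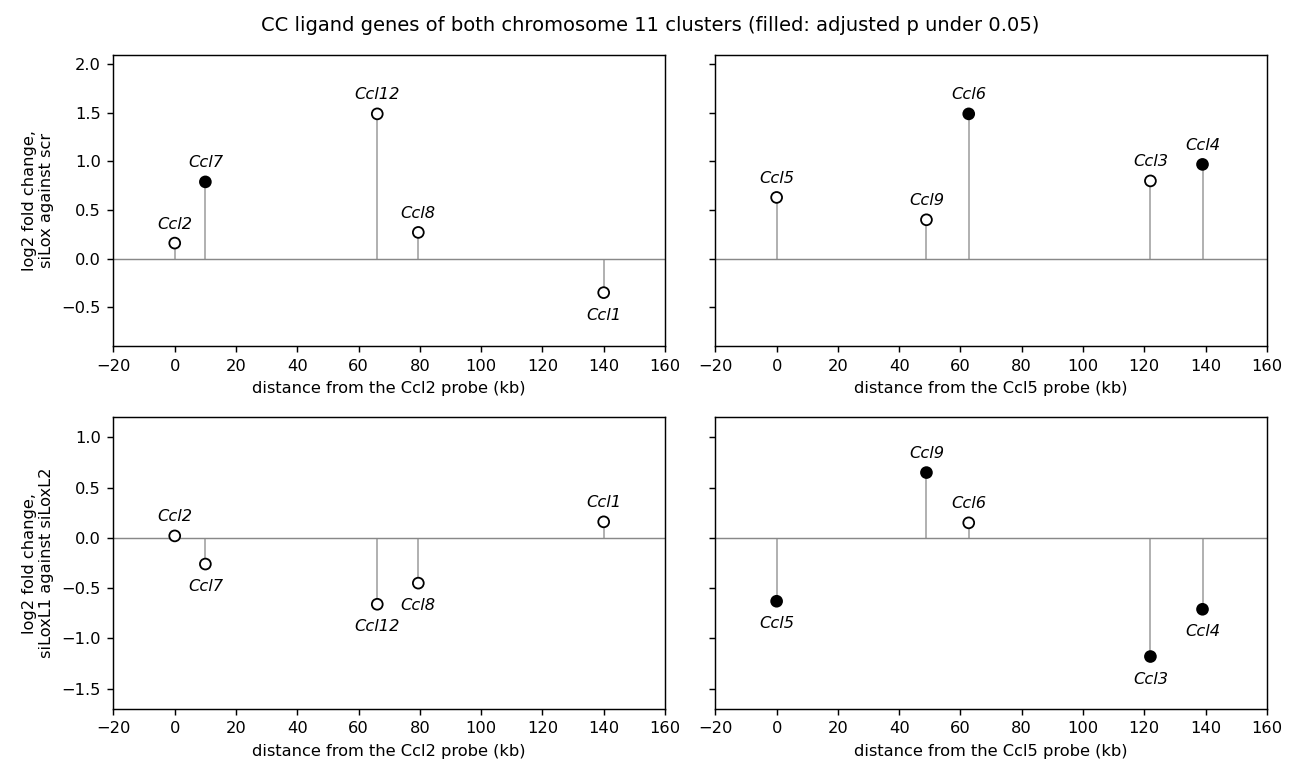
Log2 fold change (y axis) of CC ligand genes against the distance of their probe from the Ccl2 probe (left) or the Ccl5 probe (right) in kb, for siLox against scr (top) and siLoxL1 against siLoxL2 (bottom); filled points had an adjusted p under 0.05. In the lower right panel Ccl9 (0.65) stands above 0 and Ccl5 (-0.63), Ccl3 (-1.18) and Ccl4 (-0.71) below it.

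The sequence upstream of Ccl9, the member called on slide 2 in the direction opposite to Ccl5, is shown for the motifs it holds. RefSeq's promoter table (GRCm38.p6) had entries for Ccl8, Ccl9, Ccl20 and Cx3cl1, and the 250 bases before the start of Ccl9, chr11:83578637-83578886 on the minus strand, read as follows, with capitals for matches to the motifs searched.
Ccl9: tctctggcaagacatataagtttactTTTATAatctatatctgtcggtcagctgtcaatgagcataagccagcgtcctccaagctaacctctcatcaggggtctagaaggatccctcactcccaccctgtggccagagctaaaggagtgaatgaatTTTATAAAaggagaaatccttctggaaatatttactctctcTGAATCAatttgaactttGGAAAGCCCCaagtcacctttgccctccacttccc
On both strands the search used the consensus of the NF-kB site, named only, the core of the interferon-stimulated response element GAAANNGAAA, the AP-1 site TGANTCA and the TATA box TATAAA. Ccl9 held 1 NF-kB match (GGAAAGCCCC, 35 to 26 bases before the start, on the opposite strand), 1 AP-1 match (TGAATCA, 53 to 47 bases before it) and TATAAA on one strand or the other at 3 places, of which the pair at 94 to 87 overlap. Ccl20 held an NF-kB match (GGAAAACCCC) 80 to 71 bases before its start, and Ccl8 and Cx3cl1 held TATAAA at 32 to 27 and 6 to 1 bases. Among 32851 promoters, 3.9% held the NF-kB motif, 6.75% the AP-1 motif, 2.98% the interferon-response core and 12.4% TATAAA within the same 250 bases. A match describes the letters and shows no binding.

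Receptors for these ligands were mostly not above background. Of 17 chemokine receptor genes, 6 were tested, and Ccr1, Ccr2, Ccr4 and Ccr6 were above background on no array. Cx3cr1, the receptor of Cx3cl1, was above background on 2 siLox arrays and 1 siLoxL2 array. In siLox against scr, the atypical receptor Ccrl2 was 1.31 ± 0.34 higher (adjusted p = 0.0317) and the scavenging receptor Ackr3 fell by 1.13 (adjusted p = 0.015, limma). Between siLoxL1 and siLoxL2, 0 of the 6 were called in limma (0 higher and 2 lower at an unadjusted p under 0.05), with Ackr3 at -0.38 ± 0.10 (adjusted p = 0.052). The share called over all genes was 8.8%.

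Upstream of chemokine transcription, 18 of 21 cytokine and receptor genes were tested, of which 4 were higher and 5 lower in siLox than in scr (median -0.06). Beside this count, and those of the lists that follow, stand the shares over all genes, 11.5% higher and 13.5% lower. Il6, an inflammatory cytokine gene, was 0.88 ± 0.12 higher, Il17ra, a receptor subunit for interleukin-17, 0.81 ± 0.12 higher, and Il1r1, the interleukin-1 receptor, 0.66 ± 0.09 higher (adjusted p from 0.00585 to 0.00796, limma). Tnfrsf1b, a receptor for tumour necrosis factor, fell by 0.95, Il17rc by 0.48 and Il4ra by 0.42. Il1a, Il1b and Ifng were above background on no array, and Tnf, an inducer of many chemokines, chosen after its value was seen, gave 1.54 ± 0.51 and was not called (adjusted p = 0.0613).

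Among 25 signalling and transcription factor genes tested, 9 were higher and 4 lower in siLox (median 0.15), against 11.5% and 13.5% of all genes. Relb and Nfkb2, which encode the subunits of the alternative NF-kB dimer, were 1.23 ± 0.35 and 0.94 ± 0.29 higher, and Junb and Fosl1, which encode AP-1 subunits, 1.08 ± 0.28 and 0.94 ± 0.28 higher. The kinase gene Irak4 fell by 0.69 and Stat3, a transcription factor that acts downstream of interleukin-6, by 0.44.

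Of 17 genes that act on NF-kB or chemokine mRNA, mostly as inhibitors and called so below, 4 were higher and 3 lower (median 0.28). Nfkbie, an inhibitor of NF-kB that NF-kB itself induces, was 1.64 ± 0.42 higher, Zc3h12a, a ribonuclease that degrades cytokine mRNA, 1.16 ± 0.31 higher, and Tnip2 0.58 ± 0.11 higher. Cyld, a deubiquitinase, fell by 0.47, and the cytokine signalling suppressors Socs1 and Socs3 by 0.37 and 0.33.

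Proteases that release or trim chemokines were split. Adam10, which sheds Cx3cl1 from the membrane, fell by 0.81 in siLox relative to scr (adjusted p = 0.00707) and Mmp2, which cleaves Ccl7, by 0.57 (adjusted p = 0.0268, limma), whereas the cathepsin gene Ctss, typical of macrophages and also known to shed Cx3cl1 in neural tissue, was 1.02 ± 0.31 higher (adjusted p = 0.0475). Of 7 proteases tested these were all the calls. Of 13 genes for the glycosaminoglycan carriers that hold chemokines at the cell surface, 1 was higher, Sdc4 by 0.24 ± 0.07, and 5 were lower, among them the glypican genes Gpc6, Gpc3 and Gpc4, which fell by 0.84, 0.73 and 0.55.

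These counts moved with the setting of the fit and with single arrays. Over 20 alternative settings the number higher in siLox ran from 0 to 6 for the other ligands and 0 to 13 for the signalling genes. It ran from 0 to 9 for the inhibitors and 0 to 10 for the leukocyte markers. With the replicate number as a block it was 0 in each of these lists, where 3 of all 22644 genes were called. Without scr replicate 4 it was 6, 11, 8 and 10, where 7829 of all genes were called, 48.9% of them higher. Without scr replicate 1 it was 2, 7, 6 and 2, where 3627 were called, 51.2% of them higher.

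Between siLoxL1 and siLoxL2 few of these genes were called, where 6.1% of all genes were higher and 2.7% lower. Irf7, a transcription factor of the interferon response, fell by 1.65 (± 0.23, adjusted p = 0.00932, limma). Of the 25 signalling genes, 2 were lower, Irf7 among them, and 1, Map3k7 at 0.22 ± 0.05, was higher. Of 18 upstream genes, Tnfrsf1b and Il6ra were 0.38 ± 0.06 and 0.30 ± 0.06 higher, and Tlr3, a sensor of double-stranded RNA, fell by 0.77. Socs1 fell by 0.27 among 17 inhibitors, the heparan sulfate sulfotransferase gene Hs6st1 by 0.32 among 13 carriers, and 0 of 7 proteases were called in limma, also at an unadjusted p under 0.05, with Dpp4 at -0.28 ± 0.14 (adjusted p = 0.239). The median difference lay between -0.18 and 0.08 for each of these lists.

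**Figure D5:**
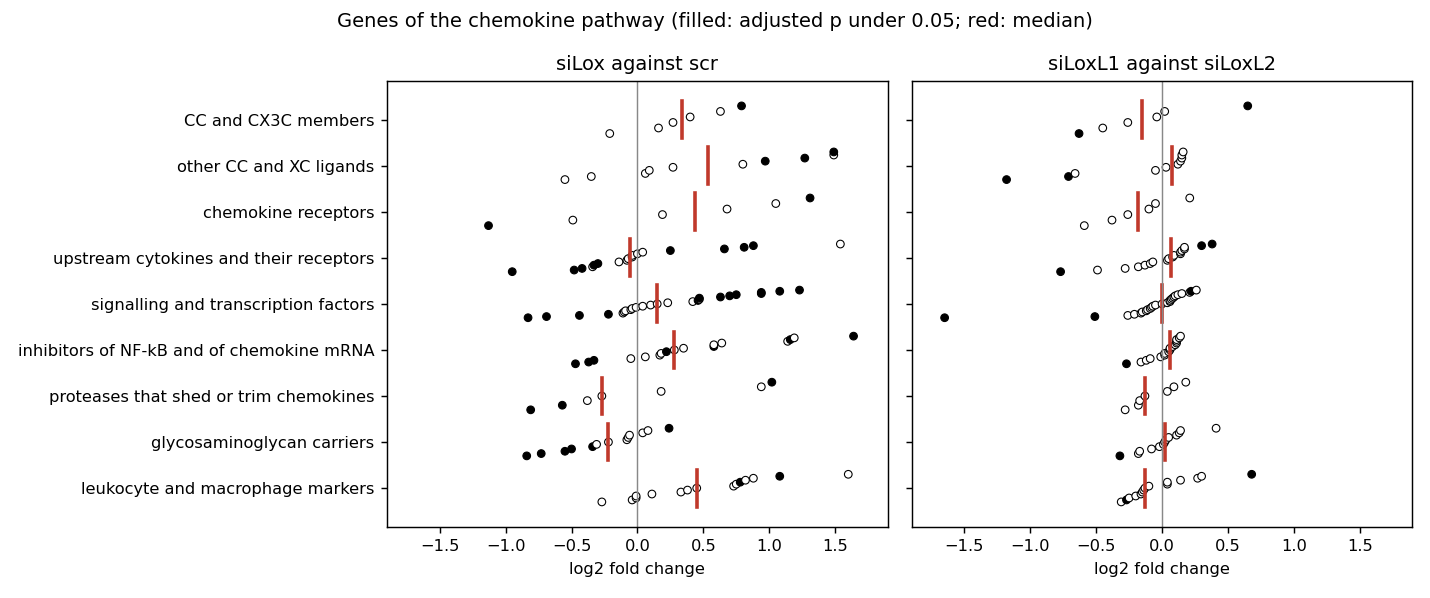
Log2 fold change (x axis) of each gene tested, by list, for siLox against scr (left) and siLoxL1 against siLoxL2 (right); filled points had an adjusted p under 0.05 and red bars are list medians. In the left panel the medians run from -0.27 (proteases) to 0.53 (other ligands).

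The genes whose pattern over the 16 arrays was closest to each member were found by the root mean square difference of log2 levels after each gene was centred within each slide. For Ccl5, whose own root mean square was 0.41, they were Slfn2 (0.16), H2-Q8 (0.18) and Ccl4 (0.18). For Ccl7 (own value 0.33) they were Emx2 (0.08), Ch25h (0.09) and Ddit3 (0.09), and for Ccl9 (0.33) Bst1 (0.12) and Pax3 (0.14). Ccl2 (0.16) was closest to Hs1bp3, Pdss1 and Casc3 (0.06 each), and Cx3cl1 (0.13) to Atf5, Ak3 and Dcaf11 (0.06, 0.06 and 0.07). No gene came close to Ccl8 (0.47), whose nearest, Mlana, Serpina3i and Sned1, differed by 0.28, 0.29 and 0.31. Among the members themselves the closest pair was Ccl5 and Ccl7 (0.23), and the pair farthest apart was Ccl8 and Ccl9 (0.59).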

How the data were processed

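Total RNA was labelled with Cy3 and hybridised to 16 one-colour Agilent arrays. Per the file headers, the deposited scanner values are background-corrected intensity values, 1 per spot, with flags of other kinds deposited beside them. The submitters' processing notes name Agilent Feature Extraction 10.7.3.1. The authors' value table holds log2 values, quantile normalized as its sorted columns differ by at most 0.000965 (r = 0.997 to 0.999 with the scanner values), and served as an alternative.

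From the scanner values, spots marked as outliers were left out, spots of a probe averaged, and log2 values taken relative to the 75th percentile of each array. Of 55681 probes, 32476 exceeded background clearly on each array of 1 group or more. They were kept, except 46 of them that lacked a usable spot on some array. The brightest probe stood for a gene, which left 22644 genes. RefSeq accessions (GRCm38.p6, names only) matched 50.3% of probes. Comparisons within a slide were fitted with limma 3.58.1 (lmFit, eBayes, R 4.3.3) on their 8 arrays, those between slides on all 16, with Benjamini-Hochberg adjustment over all genes. The script was tested on simulated data.

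The members, gene lists and rules were chosen with earlier results of these data known. Named genes are all members, up to 3 genes per list and direction with the largest called differences within a slide (with none called, up to 2 by size), the 3 nearest patterns per member, the targeted genes and the cell type markers; a few genes that this rule names are not reported here. Alternatives were other normalizations, filters and fits, array weights, a replicate block and left-out arrays.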

Additional observations from a re-analysis of the deposited data

Results flagged for a closer look

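One value stood apart from its group. The Ccl11 probe read -6.48 on siLoxL1 replicate 3, against -8.41 to -8.23 on the other siLoxL1 arrays, a gap of 0.907 of the range of the group. All 4 signals were below background. It was the only such value among 32 sets of 4 arrays looked at, and chance gives about 1 in 20.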

How the results depend on the processing

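The between-slide calls of Ccl2, Ccl5, Ccl7 and Cx3cl1 held in 20 of 20 alternatives. In siLox against scr, Ccl7 ranged from 0.65 to 0.95 and was called in 17 of 20. The number of members higher there, 1, was 2 with normexp and quantile normalization, with array weights and without replicate 4 of both groups, 3 with all 16 arrays in the fit, and 0 to 3 with single arrays left out. The number lower, 0, was 1 (Cx3cl1) with array weights and without replicate 4 of both groups. In siLoxL1 against siLoxL2, Ccl5 was called in 18 of 20 and Ccl9 in 19 of 20. The number lower, 1, was 2 with the value table, normexp, trended robust variances or array weights (Ccl7 joined) and 0 with all 16 arrays or without replicate 4 of both groups, where the number higher was also 0, against 1. The number of members higher in siLoxL1 than in scr, 0, was 1 (Ccl8) without siLoxL1 replicate 4 and without replicate 4 of both groups, and that in siLoxL2, 1, was 0 without siLoxL2 replicate 3.

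Over all genes, 5653 were called in siLox against scr, 2969 with no filter on dim probes, 9445 with array weights, 9746 with all 16 arrays, and 1830 to 7829 with single arrays left out, lower by over 1.5 times without siLox replicate 1, 2 or 3 or scr replicate 1, 2 or 3. In siLoxL1 against siLoxL2, 1993 were called, 647 with no filter, 3237 with trended robust variances, 905 with all 16 arrays, 166 without replicate 4 of both groups, and 609 to 1412 with single arrays left out, lower by over 1.5 times without any one siLoxL1 array or siLoxL2 replicate 2, 3 or 4. The cause of these shifts was not tested.

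Differences near 0 changed sign. Ccl2 in siLoxL1 against siLoxL2 was -0.02 with the value table and with normexp, and -0.01 (without siLoxL2 replicate 2) to 0.07 with single arrays left out. Cx3cl1 there was 0.02 with median centring and -0.10 to 0 (without siLoxL2 replicate 3) with single arrays left out. Ccl9 in siLoxL1 against scr was 0.10 without replicate 4 of both groups and -0.22 to 0.10 (without scr replicate 4) with single arrays left out.

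Same-numbered arrays of siLox and scr did not deviate together (r from -0.19 to 0), and those of siLoxL1 and siLoxL2 did weakly (r from 0.04 to 0.22, each array closest to its own number, a hint from the data only). With the replicate number as a block, 3 genes and 0 members were called in siLox against scr (Ccl7 0.79, adjusted p = 0.0939), 0 in every gene list, and 853 genes in siLoxL1 against siLoxL2.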

Other observations

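Markers of other cell types were measured beside the chemokines. The shares over all genes were 11.5% higher and 13.5% lower in siLox than in scr, and 6.1% and 2.7% in siLoxL1 than in siLoxL2. Of 10 fibroblast markers, 0 were higher and 4 lower in siLox than in scr in limma (median -0.45, and 0 and 6 at an unadjusted p under 0.05), among them Thy1, a surface marker of fibroblasts, which stood at 5.03 ± 0.17 in siLox and 5.86 ± 0.29 in scr (SD, n = 4 each). Of 4 mesothelial markers, 3 were lower in siLox, and of 4 epithelial markers tested, Krt19 and Krt8 were higher, by 0.77 ± 0.13 and 0.27 ± 0.08 (SE). Between siLoxL1 and siLoxL2, 0 of 10 fibroblast markers and 0 of 4 epithelial markers were called in limma (1 fibroblast marker, higher, at an unadjusted p under 0.05), and of 5 endothelial markers tested Tek and Vwf were lower in siLoxL1, with log2 differences of -0.86 and -0.50. Tek read -6.28 to -5.50 in siLoxL1 and was above background on 3 of the 4 arrays there, so its difference rests partly on signals near background.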
